A study of Homo sapiens with 2 samples.

Results

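Axon guidance ligands and receptors were followed in SW620 cells with and without a knockdown of SOX2. The set held 51 genes, 23 ligands and 28 receptors or co-receptors, out of 19775 genes that the arrays could report by name. They were chosen by name, with earlier results of these data known. It covered 19 genes of the ephrin system, 19 of the semaphorin system, 7 of the slit system and 6 of the netrin system. No probe set carried the symbol EPHB2 alone, and that receptor was not analysed here. Of the other 50 genes, 41 reached the floor on at least 1 array and are called measured below.

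These families were first described in growing axons and are also used by epithelial and endothelial cells. Ephrins sit on the cell surface and bind Eph receptor tyrosine kinases on the neighbouring cell, so that signals run both ways. Slits are secreted and bind ROBO receptors, and netrins bind DCC, NEO1 and the UNC5 receptors. Semaphorins bind plexins, and the secreted class 3 semaphorins mostly act through a complex of a plexin with a neuropilin. In the intestine, Eph receptors and ephrins help to position cells along the crypt axis, and DCC takes its name from its loss in colorectal cancer.

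The study measured gene expression on 2 Affymetrix arrays, with the stated question of which genes SOX2 regulates in a colorectal line. SW620 is an established human line from a lymph node metastasis of a colon cancer. In 1 culture SOX2, a stem cell and neural progenitor transcription factor, was knocked down with a lentivirus-delivered short hairpin. The control culture, called mock, received a hairpin with no target. Both were grown in RPMI medium, and the titles of both samples end in KO although the protocols describe a knockdown. With 1 array and no replicate in either group, no difference could be tested, and variation between cultures cannot be told apart from the knockdown. Precision is limited by the number of arrays.

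Values are the authors' intensities on a linear scale, and differences are SOX2 knockdown minus mock on the log2 scale. The floor, below which a value was not read as a level, was the median of all values, 68.5. Where 1 of the values of a gene lay under the floor, its fold change was computed from the floor and reads "at least". Differences between probe sets of 1 gene had an SD of 0.49, which measures disagreement within this pair of arrays and not between cultures. The mock array had a median intensity of 69.0 and the SOX2 knockdown array one of 68.1. SOX2 itself stood at 2077 after mock and at 20.9 after SOX2 knockdown by its brightest probe set, at least 30.3-fold lower. A further SOX2 probe set went from 333 to 120, and the other 2 lay under the floor on both arrays. All 12 intestinal epithelial markers were measured, with a summed intensity of 50843 after mock and 78282 after SOX2 knockdown, and EPCAM stood at 8910 and 9898. Of the 12, 3 were at least 2-fold higher as deposited and 1 lower. Of the higher ones, CDH17 went from 35.5 to 78.0, only at least 1.14-fold from the floor. LGALS4 went from 39.1 to 6010 and TSPAN8 from 182 to 8879, while VIL1 went from 2063 to 867. A description field of both samples names mouse liver, against the human organism label, and ALB, the liver's albumin gene, lay under the floor on both arrays. Of 8 neuron markers 4 were measured, with a sum of 4615 and 3695 over all 8, most of it TUBB3 at 4080 and 3163. The fibroblast sum was 870 and 769 over 9 genes, of which 6 were measured, among them COL1A1 at 290 and 237, with COL1A2 and COL3A1 under the floor. The endothelial sum was 327 and 298 over 5 genes, of which 2 were measured, with CDH5 under the floor. The leukocyte sum was 367 and 11960 over 5 genes with a probe set. Both measured leukocyte markers were higher, LYZ from 213 to 11691 and CD14 from 43.6 to 156, while PTPRC, CD3E and MS4A1 lay under the floor. The hepatocyte sum was 701 and 4706 over 6 genes, of which 4 were measured and SERPINA1 went from 313 to 4301. The part of these marker changes in the results below was not tested.

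More axon guidance genes were higher than lower on the SOX2 knockdown array. Of the 41 measured genes, 15 or 36.6% were higher by at least 2-fold, where 8.44% of all 13609 measured genes were. At least 2-fold lower were 5, or 12.2%, where 7.29% of all measured genes were. The set was chosen with earlier results of these data known, so these shares describe it and do not test it. Of 19 measured pathway ligands, receptors and partners outside the set, 1 was higher and 1 lower, or 5.26% each way. Measured from the floor where a value lay under it, the higher genes were led by the secreted semaphorin SEMA3C, the plexin PLXNA2 and the ephrin EFNA5, and the lower genes by the slit receptor ROBO1 and the Eph receptor EPHA4. The median difference of the measured axon guidance genes was 0.15, against -0.0063 over all measured genes, and 26 of the 41 lay above 0, against 48.9% of all. The other 21 measured genes lay between -0.87 and 0.95, and 18 of them were within 1.5-fold. Differences of at least 1.5-fold either way were seen in 23 of the 41, where 29.8% of all genes had them.

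**Figure D1:**
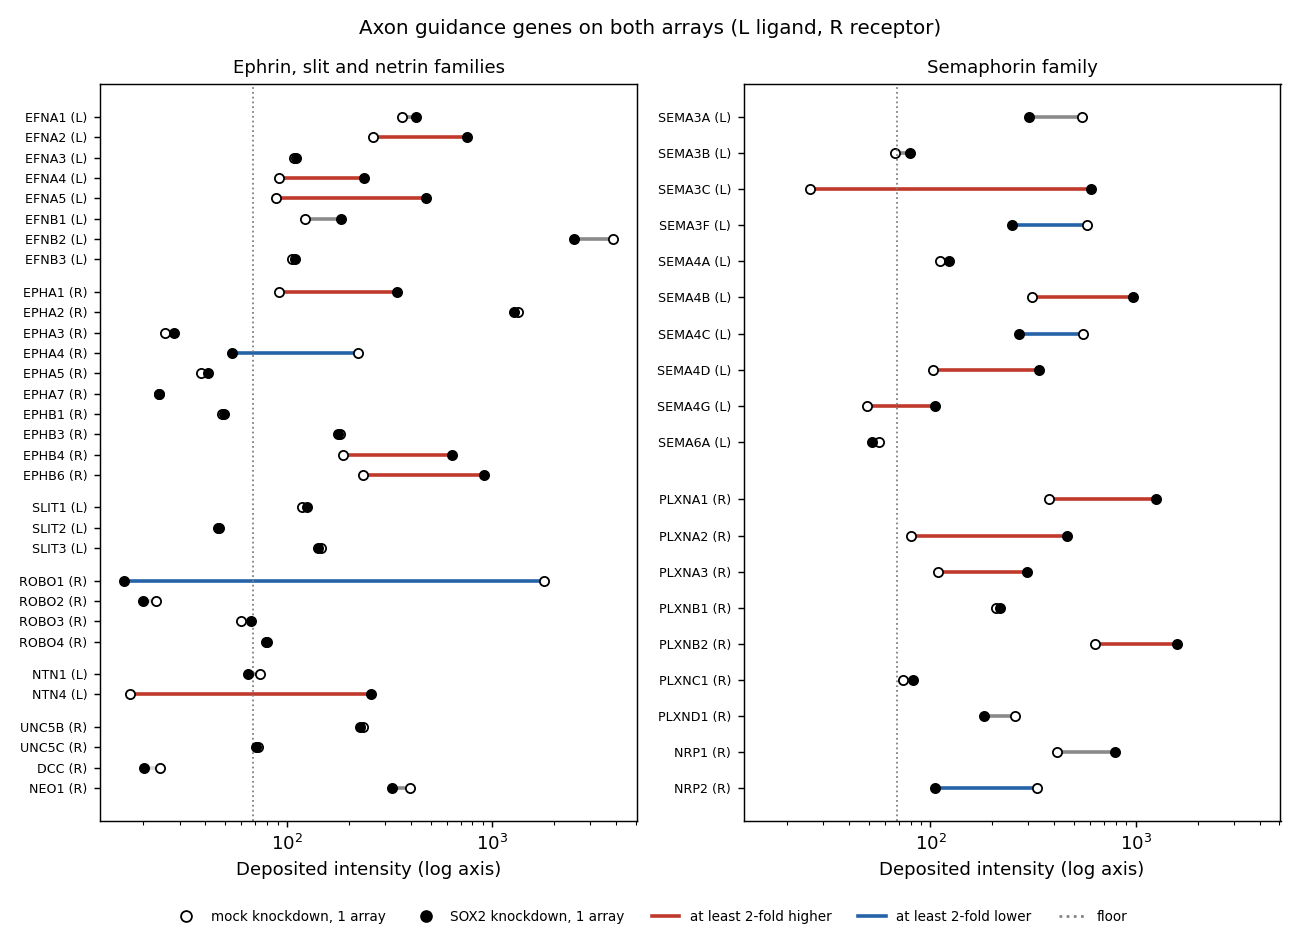
Deposited intensity on a log axis for the 50 axon guidance genes that a probe set named, with open points for the mock array, filled points for the SOX2 knockdown array and a dotted line at the floor of 68.5. ROBO1 spans 1792 to 16.2 in the lower direction and SEMA3C 25.8 to 606 in the higher direction, while most slit and netrin genes have both points close together.

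Higher genes came from 3 of the 4 systems. In the semaphorin system 8 of 18 measured genes passed 2-fold upward and 3 downward, and the median was 0.60. The ephrin system had 6 of 14 higher and 1 lower, with a median of 0.40. The netrin system had 1 of 5 higher and none lower, and the slit system none of 4 higher and 1 lower. By role, 8 of 21 ligands and 7 of 20 receptors were higher and 2 and 3 lower. Of all measured genes 8.44% were higher and 7.29% lower. The counts by system and role cover the genes of the set only, and several are small.

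ROBO1, the receptor that binds slit proteins, had the lowest difference of the 41. Its intensity was 1792 after mock and 16.2 after SOX2 knockdown, so it was at least 26.2-fold lower. Its deposited difference was -6.79, and 1 probe set reports it. The mock value stood well above the floor and the other value well under it. The other receptors stood too low after mock to show a fall of this size from the floor. ROBO4, the receptor of endothelial cells, stood at 79.2 and 79.7, close to the floor, while ROBO2, at no more than 23.1, and ROBO3 at 59.5 and 67.0 stayed under it. The slit ligands changed little. SLIT1 stood at 118 and 126, SLIT3 at 146 and 142, and SLIT2 stayed under the floor at 46.3 and 46.6. Within the slit system ROBO1 was the only measured gene past 2-fold.

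The regions upstream of the ROBO1 starts are shown because this gene differed most. RefSeq lists a pair of start sites on build GRCh38.p14, both on the minus strand of chromosome 3. The 250 bases before each start lie at chr3:79767999-79768248 and chr3:79019460-79019709, and the sequences read 5′ to 3′ along the gene. In all sequences printed here capitals mark ACAAAG or ACAATG, core letters of SOX binding sequences, on either strand, so that CTTTGT and CATTGT are marked too. The motifs share the letters ACAA and were counted wherever they began. Neither ROBO1 window held them.
ROBO1 outer start: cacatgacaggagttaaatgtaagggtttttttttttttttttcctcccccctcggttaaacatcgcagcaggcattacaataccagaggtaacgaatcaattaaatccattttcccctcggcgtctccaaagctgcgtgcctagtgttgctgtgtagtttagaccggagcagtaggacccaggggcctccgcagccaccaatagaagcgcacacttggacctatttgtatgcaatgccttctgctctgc
ROBO1 inner start: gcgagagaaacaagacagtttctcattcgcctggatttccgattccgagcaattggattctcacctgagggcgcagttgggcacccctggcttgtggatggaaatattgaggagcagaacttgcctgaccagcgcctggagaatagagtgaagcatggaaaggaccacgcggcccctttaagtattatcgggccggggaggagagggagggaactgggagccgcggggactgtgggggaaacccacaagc
Of 35116 such windows over all genes, 21.2% held at least 1 of these motifs. RefSeq windows were found for 45 of the 51 axon guidance genes, and 7 of their 70 windows held a motif. The genes with a motif were 2 of the 15 higher genes, 1 of the 5 lower genes and 3 of the 16 measured genes between these limits that had a window. Over all genes with a window, 24.9% had a motif in one. A match is only a run of letters, and binding of SOX2 was not measured. The probe sets do not tell which start was in use.

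The Eph receptors split. EPHA4, a receptor that binds both A and B ephrins, was lower, at 221 after mock and 54.2 after SOX2 knockdown, at least 3.23-fold. Its 4 probe sets at the floor all differed downward by at least 2-fold as deposited, with differences from -5.36 to -1.12. The probe set with the largest difference went from 354 to 8.6, so the size depended on the probe set and the direction did not. EPHB6, an Eph receptor without kinase activity, was 3.89-fold higher, at 234 and 910. EPHB4, the receptor of EFNB2 best known from veins, stood at 187 and 634, a difference of 1.76, while its other probe set went from 212 to 278. EPHA1 stood at 91.0 and 345, a difference of 1.92, but its other probe set at the floor gave 84.9 and 84.0. EPHA1 is therefore a call that rests on 1 of its probe sets. EPHA2, a receptor common in epithelial tumours, stood at 1330 and 1279, and EPHB3, a Wnt target of the crypt base, at 182 and 178. Both were within 1.5-fold. EPHA3, EPHA5, EPHA7 and EPHB1 stayed under the floor, between 23.9 and 49.4.

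The ephrins of class A, which are anchored to the membrane by a lipid, were higher or level, and those of class B, which span the membrane, were not 2-fold changed. EFNA5 stood at 88.5 after mock and 474 after SOX2 knockdown, 5.36-fold higher. Of its 4 probe sets at the floor 3 were at least 2-fold higher, up to 3.32 as deposited, and the other gave 73.5 and 74.5. EFNA2 went from 262 to 756, or 2.88-fold, with its other probe set at the floor at a difference of 0.12. EFNA4 went from 91.3 to 238, or 2.61-fold, on its only probe set. EFNA1 and EFNA3 lie close to EFNA4 on chromosome 1 and stood at 364 and 426 and at 108 and 110, so this group of neighbours did not move together. All 5 class A ephrins lay above 0, with a median of 1.38. EFNB2, the ligand of EPHB4, was 1.53-fold lower, at 3848 and 2508, with a second probe set at a difference of -0.45. EFNB1 stood at 123 and 183 and EFNB3 at 106 and 109. Thus EPHB4 was higher by its brightest probe set while its ligand EFNB2 was lower, short of 2-fold, on the same array.

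The upstream windows of EPHA4 and EFNA2 are shown because both held a SOX motif and the genes differed in opposite directions. The EPHA4 window is at chr2:221574203-221574452 on the minus strand, for the outer of its start sites, with the motif beginning 135 bases before the start. The EFNA2 window is at chr19:1285623-1285872 on the plus strand, with the motif 9 bases before the start. The EPHA4 window had 43.2% G and C and the EFNA2 window 84.0%, against a median of 58.0% over all windows.
EPHA4: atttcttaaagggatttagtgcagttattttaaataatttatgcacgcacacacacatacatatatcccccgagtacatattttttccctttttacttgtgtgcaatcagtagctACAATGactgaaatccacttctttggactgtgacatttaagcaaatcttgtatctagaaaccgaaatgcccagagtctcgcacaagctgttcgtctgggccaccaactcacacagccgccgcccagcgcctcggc
EFNA2: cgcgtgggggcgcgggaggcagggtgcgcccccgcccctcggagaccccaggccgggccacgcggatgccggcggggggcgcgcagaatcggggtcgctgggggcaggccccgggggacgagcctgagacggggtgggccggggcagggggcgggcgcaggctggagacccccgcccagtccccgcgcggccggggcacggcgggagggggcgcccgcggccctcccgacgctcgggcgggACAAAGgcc

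NTN4, a netrin of basement membranes, was the 1 netrin gene past 2-fold. It stood at 17.2 after mock and 255 after SOX2 knockdown, at least 3.73-fold higher, with 1 probe set. The deposited difference was 3.89, but the mock value was too dim to be read as a level. NTN1, the best known guidance netrin, stood at 73.9 and 64.7, across the floor. The netrin receptors stayed within 1.5-fold. NEO1, a DCC relative that is widely expressed, stood at 397 and 326, with its second probe set at a difference of -0.42. UNC5B stood at 235 and 228 and UNC5C at 72.4 and 70.5, and DCC stayed under the floor at 24.1 and 20.1. The ligand NTN4 was thus higher with no measured receptor of its family past 2-fold.

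**Figure D2:**
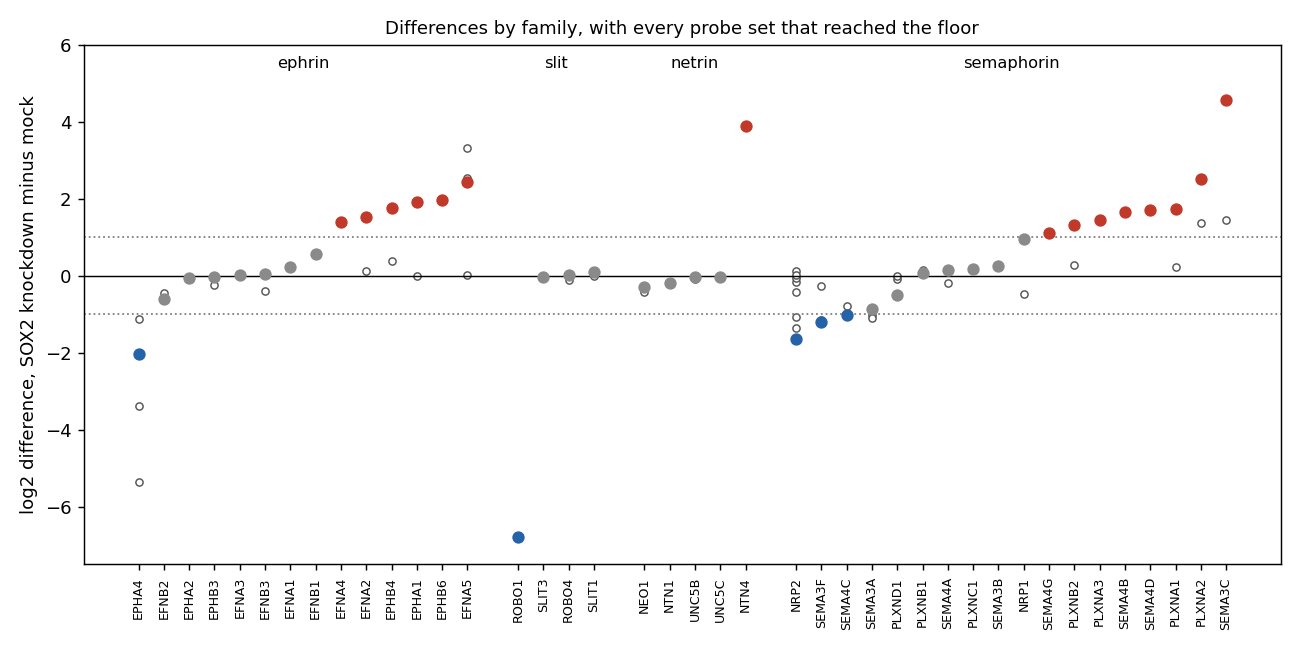
The log2 difference of SOX2 knockdown minus mock for the 41 measured genes by system, with filled points for the probe set used and open points for other probe sets of the gene that reached the floor, and dotted lines at 2-fold. Filled points under the floor on 1 array are plotted as deposited, as for ROBO1 at -6.79. EPHA4 keeps every point below the lower line, while EPHA1, EFNA5 and NRP2 each have a point near 0.

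Plexins, the receptors that turn semaphorin binding into cytoskeletal change, were higher or level, apart from PLXND1. All 3 class A plexins of the set were at least 2-fold higher, while PLXNA4, outside the set, stood at 86.7 and 90.8. PLXNA2 went from 80.2 after mock to 460 after SOX2 knockdown, 5.73-fold, and its second probe set differed by 1.37 as deposited, or at least 1.57-fold. PLXNA1 went from 379 to 1249, or 3.29-fold, with its other probe set at 257 and 301. PLXNA3 went from 109 to 296, or 2.73-fold, on 1 probe set. PLXNB2, a receptor of class 4 semaphorins in epithelia, went from 633 to 1587, or 2.51-fold, with a second probe set at 86.4 and 104. The second probe sets of PLXNA1 and PLXNB2 were thus within 1.5-fold. PLXNB1, a receptor for SEMA4D, stood at 207 and 219, PLXNC1 at 73.1 and 82.1, and PLXND1 at 258 and 181, a difference of -0.51.

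The neuropilins, co-receptors for class 3 semaphorins and for VEGF, differed between probe sets. NRP2, which pairs with SEMA3F, was 3.13-fold lower, at 331 after mock and 106 after SOX2 knockdown. Of its 8 probe sets at the floor, 6 were lower, 3 of them by at least 2-fold also from the floor, and the other 2 differed by 0.018 and 0.13. NRP1, which pairs with SEMA3A, stood at 411 and 794, a difference of 0.95, but its second probe set at the floor went from 280 to 200. The direction of NRP1 therefore depended on the probe set.

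Class 3 semaphorins, the secreted ones, also went both ways. SEMA3C stood at 25.8 after mock and 606 after SOX2 knockdown, at least 8.84-fold higher. Its second probe set went from 28.0 to 76.0, a deposited difference of 1.44 but only at least 1.11-fold against the floor. SEMA3F, which repels cells through NRP2, was 2.32-fold lower, at 579 and 250. Its other probe sets differed by -0.28 and, as deposited, by -1.16, which is at least 1.26-fold. SEMA3A, the ligand of NRP1, was 1.82-fold lower, at 548 and 300.5, and its 2 dimmer probe sets differed by -1.03 and -1.09 as deposited, with the lower values under the floor. SEMA3B, a neighbour of SEMA3F on chromosome 3, stood at 67.0 and 79.2. SEMA3F and its co-receptor NRP2 were thus both lower, while SEMA3A was lower with NRP1 unsettled.

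The class 4 semaphorins, which span the membrane, had 3 of the 5 genes in the set higher and 1 lower. SEMA4F, outside the set, stood at 156 and 89.6, a difference of -0.80. SEMA4D, the ligand of PLXNB1, went from 103 after mock to 336 after SOX2 knockdown, or 3.25-fold. SEMA4B went from 311 to 968, or 3.12-fold. SEMA4G crossed the floor from 49.3 to 106 and was at least 1.54-fold higher, so that its place among the 15 rests on a value under the floor. Raising such values to the floor gave 14 genes past 2-fold upward and 5 downward, where 7.85% and 6.64% of all genes were. SEMA4C, a ligand of PLXNB2, was 2.05-fold lower, at 554 and 271, with a second probe set at -0.78. SEMA4A stood at 111 and 122.5, and SEMA6A, of another membrane class, stayed under the floor. SEMA4C was thus lower while its receptor PLXNB2 was higher, and SEMA4D was higher while its receptor PLXNB1 was level.

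The windows of PLXNA2 and SEMA3C are shown as those of the 2 semaphorin system genes with the largest positive differences. The PLXNA2 window lies at chr1:208244385-208244634 on the minus strand and held a motif beginning 148 bases before the start. The window of the outer SEMA3C start lies at chr7:80922390-80922639 on the minus strand and held none. They had 72.4% and 36.4% G and C.
PLXNA2: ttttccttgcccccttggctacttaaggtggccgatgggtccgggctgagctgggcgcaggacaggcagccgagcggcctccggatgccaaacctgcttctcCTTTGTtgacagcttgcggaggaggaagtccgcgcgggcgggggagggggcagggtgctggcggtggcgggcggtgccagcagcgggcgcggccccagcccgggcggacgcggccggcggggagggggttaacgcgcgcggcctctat
SEMA3C: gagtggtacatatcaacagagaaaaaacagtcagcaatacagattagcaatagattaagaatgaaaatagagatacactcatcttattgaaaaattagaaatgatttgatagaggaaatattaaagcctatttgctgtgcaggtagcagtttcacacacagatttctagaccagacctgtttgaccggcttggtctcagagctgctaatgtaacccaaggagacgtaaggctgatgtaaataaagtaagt

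**Figure D3:**
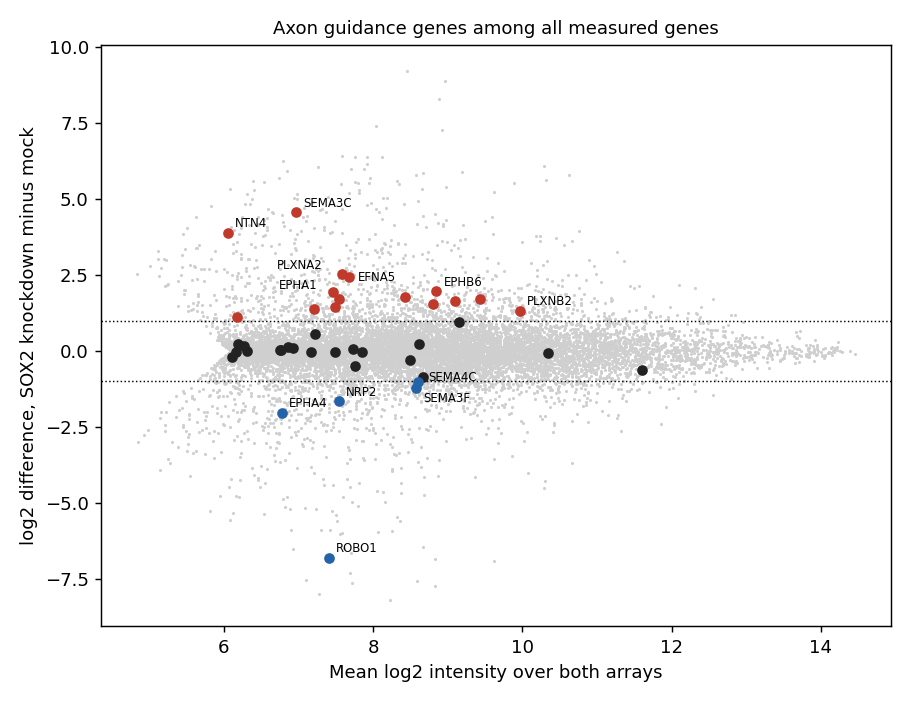
The log2 difference of SOX2 knockdown minus mock against mean log2 intensity over both arrays, with all 13609 measured genes in grey and the 41 axon guidance genes in red (at least 2-fold higher), blue (at least 2-fold lower) or black, and dotted lines at 2-fold. The 15 red points lie over a wide range of mean intensity, and ROBO1 is plotted at its deposited -6.79.

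Probe sets of the same gene gave a check on these calls. Of the 20 genes past 2-fold, 8 had 1 probe set at the floor and 12 had several. All probe sets at the floor went the same way in 10 of the 12, the exceptions being EPHA1 and NRP2, and all were past 2-fold as deposited in 3, EPHA4, PLXNA2 and SEMA3C. Over all genes past 2-fold with several such probe sets, the corresponding shares were 88.3% and 47.2% of 1077. From the floor, none of the 12 had all its probe sets past 2-fold, against 38% of the 1077, since the weakest probe set was at least 1.29-fold lower for EPHA4, 1.57-fold higher for PLXNA2 and 1.11-fold higher for SEMA3C. Of the 15 higher genes, 7 were read by a probe set whose name marks a possible match to several transcripts, against none of the 5 lower genes and 36.2% of all measured genes. Leaving these probe sets out, 9 of 37 genes passed 2-fold upward and 5 downward, where 8.54% and 7.35% of all genes were. With the probe set of smallest difference for every gene, 9 of 41 were higher and 2 lower, where 6.09% and 5.57% of all genes were.

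Chromosome neighbours were compared to see whether the genes next to a guidance gene differed with it. For each gene the median difference of the 20 nearest measured genes, 10 on each side, was taken. Over 13585 placed genes this median had a central 95% from -0.59 to 0.51. For the 15 higher genes it lay between -0.25 and 0.78, and for the 5 lower genes between -0.16 and 0.079. In 15 of these 20 genes the neighbour median had the same sign as the gene. The share with the same sign over all genes was not counted. PLXNA3 on the X chromosome was the only 1 of the 20 with a neighbour median of at least 0.5 in size: its neighbours had a median of 0.78, and 9 of the 20 were at least 2-fold higher. Around ROBO1 the median was -0.16, around EPHA4 -0.12, around SEMA3C 0.13 and around NTN4 -0.087. All 4 of these medians lay inside the central 95%. Of the 20 neighbours of ROBO1, 4 were at least 2-fold lower and 1 higher. With 5 genes on each side the median was -0.69 around ROBO1, so the nearest genes were lower there. It was then -0.21 around EPHA4, -0.15 around SEMA3C and -0.089 around NTN4. UNC5C had a difference of -0.038 among neighbours with a median of 0.61. Its values of 72.4 and 70.5 were close to the floor and its other probe sets lay under it. EFNB2, at -0.62, had neighbours with a median of -0.54, of which 6 of 20 were at least 2-fold lower.

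**Figure D4:**
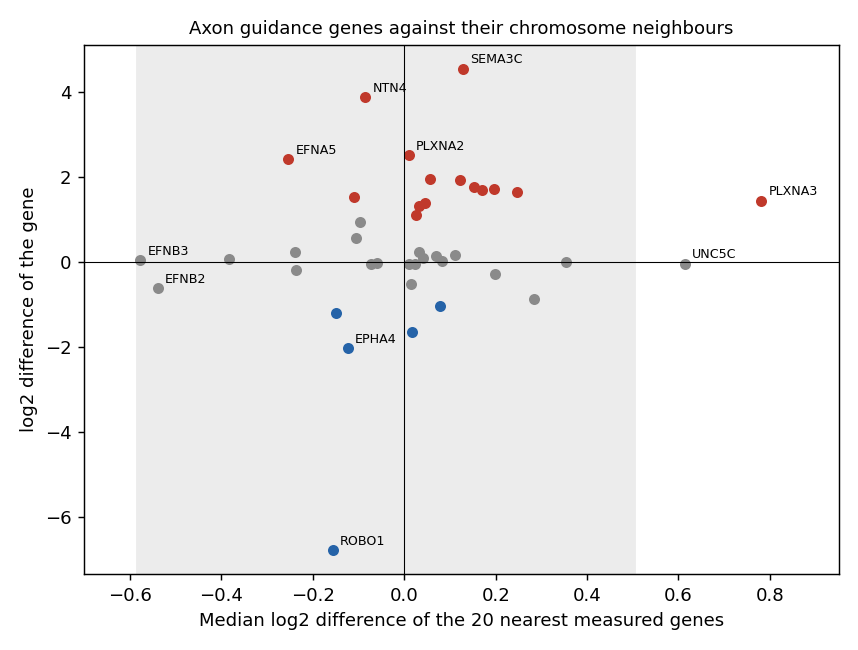
The log2 difference of each of the 41 measured axon guidance genes against the median log2 difference of its 20 nearest measured genes on the chromosome, coloured red (at least 2-fold higher), blue (at least 2-fold lower) or grey, with the central 95% of neighbour medians over all genes shaded. PLXNA3 at 0.78 and UNC5C at 0.61 lie to the right of the shaded band, and ROBO1, EPHA4, SEMA3C and NTN4 lie inside it.

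Other genes of these pathways were counted in the same way. Of 28 further ligands, receptors and partners outside the set, 19 were measured, 1 was at least 2-fold higher and 1 lower, or 5.26% each way, beside 8.44% and 7.29% of all measured genes. FLRT3, a membrane protein that binds UNC5 and ROBO receptors, went from under the floor to 340, at least 4.96-fold higher. RGMA, a ligand of NEO1, went from 252 to 113, or 2.23-fold lower, with its second probe set at -0.09. Their median was -0.0063. The second list held 63 effectors, adhesion partners and proteases, of which 54 were measured, 9 were at least 2-fold higher, or 16.7%, and 4 lower, or 7.41%, beside 8.44% and 7.29% of all measured genes. The median was 0.045. MICAL2, of a family of actin-oxidising enzymes that act downstream of plexins, went from 702 to 3098. PTK2, the focal adhesion kinase, went from 846 to 3548, and RRAS, a small GTPase switched off by plexins, from 160 to 660. They were 4.41-fold, 4.19-fold and 4.12-fold higher. All probe sets of MICAL2 and PTK2 at the floor went the same way, while RRAS had only 1 there. Among the lower genes FYN, a kinase of the SRC family used by several guidance receptors, went from 2768 to 158, or 17.5-fold. CRMP1, a mediator of semaphorin signals, went from 495 to 118, with 1 probe set at the floor. The others were named after their values were seen. DPYSL3, a relative of CRMP1, went from 963 to 44.0, at least 14.1-fold, and L1CAM, an adhesion molecule of axons, from 299 to 37.8, at least 4.36-fold, each with another probe set near 0, at 0.08 and 0.01.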

How the data were processed

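Per the labels' protocols, biotin-labelled RNA of 1 culture per group was hybridised to 1 array each. The authors deposited linear intensity values, and the submitters' processing notes name RMA. This method corrects background, equalises array distributions and summarises probes, so a change in total RNA cannot be seen. Version, settings and the return to a linear scale were not given in the sources used here, and no detection call comes with the values.

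Of 54675 probe sets, 62 were controls. A platform annotation gave 1 symbol for 41091, several for 1801 and none for 11721, and only the first kind was used. Of these, 41037 matched a RefSeq gene table of GRCh38.p14 by Entrez identifier, with 0 symbols changed. That table gave gene order only. Intensities were turned to log2 with no pseudocount. A gene took its probe set with the highest mean, and was measured where its higher value reached the median of all values, giving 13609 of 19775 genes. With 1 array per group, genes were counted past 2-fold and no test was run. Promoter windows came from RefSeq. The counting was tested on simulated data. The members, lists and limits were chosen with earlier results of these data known. All members are accounted for, with values where the difference was at least 1.5-fold or the gene belonged to the slit or netrin system. Of other pathway genes, up to 3 per list and direction were named, by size of difference past 2-fold with probe sets in 1 direction. Alternatives changed the floor, normalization, probe set, pseudocount (32) and limit. Python 3.11.15, numpy 2.4.6, pandas 2.3.3 and matplotlib 3.10.9 were used.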

Additional observations from a re-analysis of the deposited data

How the results depend on the processing

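No paired analysis was possible because each group held 1 array. The count of 15 higher and 5 lower axon guidance genes was the same under the 25th percentile floor, no floor and all 3 other normalizations. The floor changes left 47 and 50 measured, where 6.89% and 6.03% of all genes were higher and 5.96% and 5.21% lower. The normalizations kept 41, where 8.23% to 8.62% of all genes were higher and 7.01% to 7.49% lower. With both arrays required at the floor, 3 of 34 axon guidance genes and 3 of 68 other pathway genes were lower, against 5 and 5. Of all genes 5.58% were lower and 6.68% higher, and 12 of the 34 and 9 of the 68 were higher. The mean over probe sets left 2 lower and 11 higher axon guidance genes of 41, where 6.85% and 7.54% of all genes were. The probe set of smallest difference left 9 higher and 2 lower axon guidance genes of 41 and 2 lower pathway genes of 73. Of all genes 6.09% were then higher and 5.57% lower. This choice turned EPHA1 to -0.016 and NRP2 to 0.018. Leaving out probe sets marked as matching several transcripts, 9 of 37 axon guidance genes were higher, 2 of 55 pathway genes lower, and EPHA1 again stood at -0.016. Of all genes 8.54% were then higher and 7.35% lower. A limit of 3-fold left 3 lower axon guidance genes of 41, where 3.43% of all genes were. It left 6 higher pathway genes of 73, against 10 at 2-fold, where 4.44% of all genes passed 3-fold upward. A limit of 1.5-fold gave 8 lower pathway genes of 73, where 14.8% of all genes were. The median of the axon guidance genes was 1.14 over the 28 that reached the 75th percentile floor, against 0.15, so it depends on which dim genes are counted. The SOX2 difference of -6.64 was -4.05 as a mean over probe sets, -1.47 at the probe set of smallest difference, -5.32 with a pseudocount of 32 and -4.92 with values raised to the floor, an alternative chosen after the data were seen. SOX2, ROBO1, EPHA4, SEMA3C, SEMA3B, SEMA4G, NTN1 and NTN4 gave no value with both arrays required at the floor. The largest neighbour median, around PLXNA3, was 1.08 with 5 genes on each side and 0.69 with 20.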

Other observations

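Several guidance genes had probe sets that disagreed on these arrays. The 11 probe sets of NRP2 ran from -1.65 to 0.13, with the brightest going from 331 to 106 and another from 78.7 to 86.2. For NRP1, the brightest went from 411 to 794 and the next from 280 to 200, so the probe sets of this co-receptor gave opposite directions. For EFNA5, the probe set with the largest difference went from 62.1 to 619 and that with the smallest from 73.5 to 74.5. For EPHA4, the largest difference was from 354 to 8.6, and another probe set stayed under the floor at 25.9 and 26.2. Which transcript each probe set reads was not analysed here.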
